A study of Mus musculus with 6 samples.

Results

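The Zfp genes described here are mouse genes whose symbol is Zfp followed by a number, most of which encode proteins with repeated C2H2 zinc fingers. They were chosen on their level: a gene had to be listed once, to carry the status OK in all 6 libraries, and to reach 2 FPKM in at least 2 of them. FPKM is a level in fragments, scaled to the length of the transcript and to all mapped fragments of the library. Of 340 Zfp symbols, 330 could be judged (Zfp36, an RNA-binding protein of another zinc finger class, was set aside, 3 symbols were listed more than once and 6 had no valid estimate in some library), and 213 met the rule. These 213 are among 10136 genes of the series that met the same rule on level. The values that chose the members are the levels themselves, so the levels below are a description.

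A C2H2 finger is a short loop held by a zinc ion between a pair of cysteines and a pair of histidines, and a row of fingers can read a row of DNA bases. Many mouse Zfp genes also encode a KRAB box, which recruits Trim28 (also called KAP1) and through it Setdb1 and HP1 proteins, a machinery known for silencing endogenous retroviruses and other repeats. The genes lie in clusters that arose by repeated duplication, so neighbouring members can be alike in sequence.

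The series asked how macrophages of mice without miR-221 and miR-222 respond to bacterial lipopolysaccharide (LPS) after an earlier exposure. Cells labelled peritoneal macrophages came from C57Bl/6 mice, either wild type (WT) or with the miR-221/222 -/Y knockout (KO). The deletion is on the X chromosome, and no source used here says that it was limited to 1 cell type. For each genotype there was 1 library of untreated cells (naive), 1 of cells given 1000 ng/ml LPS for 4 h (LPS), and 1 of cells given 10 ng/ml LPS for 15 h, washed, rested for 2 h and then given 1000 ng/ml LPS for 4 h (tolerized). The submitters describe the design as triplicate, while 1 table per group was analysed here, and whether that table joins 3 mice or cultures is not given in the sources used here. The p-values below therefore come from a fit with genotype and condition as additive terms, with 2 libraries a condition and 3 a genotype, and they measure the spread of libraries around that fit.

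The deleted microRNA genes could not be used to check the genotype labels, because Mir221 and Mir222 were listed at 0 FPKM in all 6 poly(A)-selected libraries. Read depth cannot be read from these tables. The deposited interval around a member's FPKM had a median half-width of 10.1% to 12% of the value in the naive and tolerized libraries and of 16.7% to 17% in the LPS libraries, and it covers counting error only. All 6 measured macrophage markers reached 2 FPKM. B cell markers were present as well: all 7 reached 2 FPKM, none was at 0, and their summed level was 759 and 568 FPKM in the naive libraries (WT, then KO), 314 and 275 in the LPS libraries, and 483 and 601 in the tolerized libraries. Mast cell markers were also present (4 of 4 at 2 FPKM, summing to 103 to 192 FPKM), T and NK cell markers were low (7.59 to 34.7 FPKM), and none of 4 mesothelial markers reached 2 FPKM in 2 libraries. The 50 most abundant genes took 35.2% and 38.8% of all FPKM in the naive libraries and 43.3% to 47% in the other 4.

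A computed look at the proteins separated 3 classes. A KRAB box was found in 102 members, with a median of 12 fingers (2 to 23). A further 91 members had at least 3 fingers and no KRAB box found (median 8, 3 to 37), and 20 had fewer than 3 canonical fingers. Chromosomes 7, 17 and 13 held 48, 33 and 20 members, together 47.4% of them. Chromosome 7 held 22.5% of the members against 7.44% of all genes tested, chromosome 17 held 15.5% against 5.55%, and chromosome 13 held 9.39% against 3.71%. Of the KRAB members, 60.8% lay on these 3 chromosomes, against 37.4% of those with 3 or more fingers and no KRAB box.

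Shared sequence limits what a level of a member can mean. Of all 50-base stretches in a member's longest transcript, a median of 0.86% also occurred in transcripts of another gene, on either strand. In 49 members the share was at least 10%, in 11 at least 50%, and in 70 it was 0. The loci of 15 members overlapped another gene in the tables. How reads that fit several genes were divided is not given in the sources used here.

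The members were weakly expressed as a class, and their levels were lowest in the LPS libraries. The median member stood at 6.47 FPKM in WT naive, 2.89 in WT LPS and 4.86 in WT tolerized cells, and at 5.70, 2.37 and 5.10 FPKM in the KO. Over all genes tested the medians were 15.0, 8.55 and 12.7 FPKM in WT and 14.8, 8.03 and 12.6 in the KO. The members' summed FPKM was 0.345%, 0.150% and 0.238% of the total in the 3 WT libraries and 0.262%, 0.157% and 0.255% in the 3 KO libraries.

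The number of members at 2 FPKM or more was 205 in WT naive, 132 in WT LPS and 190 in WT tolerized cells, and 204, 120 and 187 in the KO. There were 112 members at 2 FPKM in all 6 libraries and 16 at 10 FPKM in all 6. The rule on level lets in genes that are high in only 1 condition: 15 members reached 2 FPKM only in both naive libraries, and 5 were below 2 FPKM in both naive libraries. Zfp7 and Zfp566 reached 2 FPKM only in both tolerized libraries. At the edge of the rule, the second highest library of the 5 closest members (Zfp560, Zfp503, Zfp784, Zfp763 and Zfp54) stood between 2.04 and 2.19 FPKM. The 5 closest genes outside it (Zfp867, Zfp661, Zfp606, Zfp113 and Zfp324) stood between 1.96 and 1.99 FPKM. Of the 117 judged genes that missed the rule, 100 were below 2 FPKM in every library and 9 were listed at 0 in all 6.

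**Figure D1:**
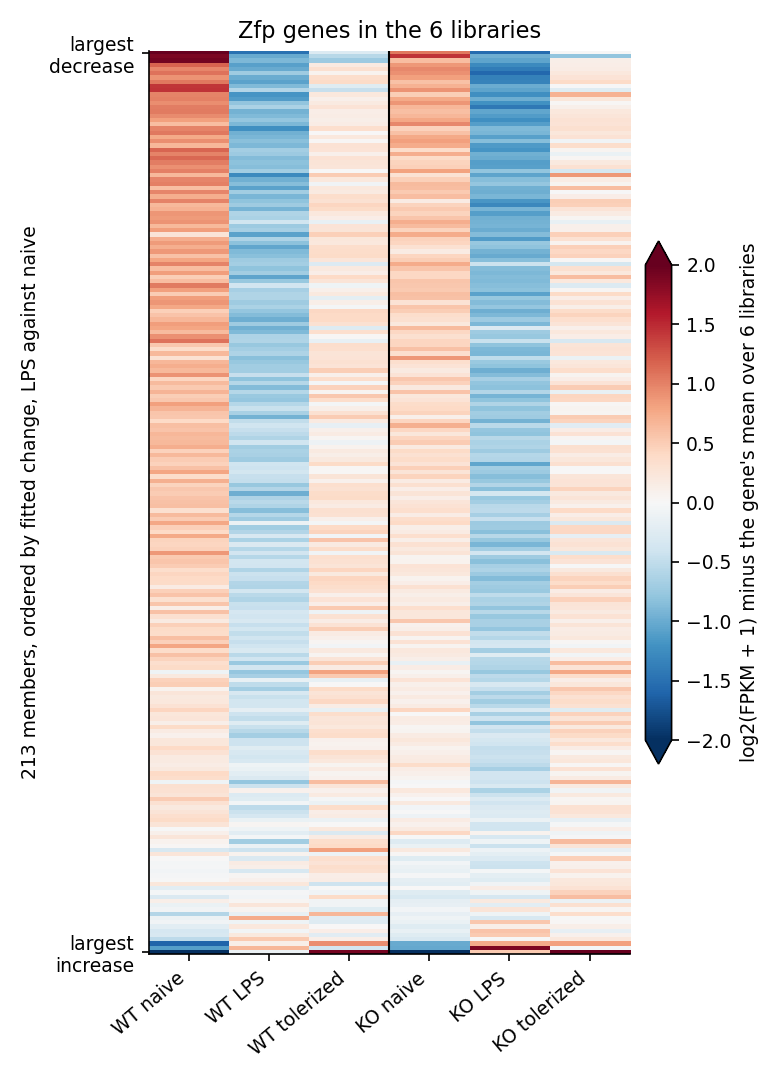
Each row is 1 of the 213 members and each column 1 library; colour is log2(FPKM + 1) minus the gene's mean over the 6 libraries, and rows are ordered by the fitted change between LPS and naive libraries. Most rows are below their mean in both LPS libraries, and a few rows at the bottom, led by Zfp811, Zfp800 and Zfp558, run the other way.

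The most abundant member was Zfp207 (chr11:80196781-80219375, mm9), a protein of the mitotic spindle that binds Bub3. It measured 88.8, 92.7 and 98.8 FPKM in WT (here and below in the order naive, LPS, tolerized) and 88.6, 79.0 and 94.4 FPKM in the KO. Its 6 libraries lay between 79.0 and 98.8 FPKM, and limma called it in no contrast on the deposited scale. On the rescaled values described below it rose with LPS by 0.79 (limma adjusted p = 0.0222). Zfp106, an RNA-binding protein needed by motor neurons, is also among the 10 highest by mean level, with 30.6, 10.3 and 27.5 FPKM in WT and 25.4, 16.4 and 24.3 in the KO. The others are Zfp800, Zfp91, Zfp263, Zfp445, Zfp384, Zfp706, Zfp238 and Zfp655. Of the 10, 7 had both LPS libraries below both naive libraries, and the exceptions were Zfp207, Zfp800 and Zfp263.

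Most Zfp members were lower after 4 h of LPS in both genotypes. By limma on log2(FPKM + 1), with p-values adjusted over all 10136 genes, 170 of the 213 members (79.8%) fell and 5 (2.35%) rose. Over all genes tested, 54.4% fell and 8.74% rose. The median difference was -1.02 for the members and -0.76 for all genes. Both LPS libraries were below both naive libraries in 187 members (87.8%, against 67.5% of all genes) and above them in 9 (4.23%, against 12.8%). In single pairs of libraries, 119 of 208 members with 2 FPKM in either library were at least 2-fold lower in LPS than in naive WT cells and 4 at least 2-fold higher, against 39% and 8.22% of all genes. In the KO, 97 of 207 were lower and 3 higher, against 41.9% and 6.8% of all genes. Zfp811, Zfp800 and Zfp558 were the 3 higher in the KO, and WT added Zfp593. Such pairs have no replicate check. The 15 members that reached 2 FPKM only in the naive libraries all fell, which the rule on level fixed in part. Without them 155 of 198 members (78.3%) fell and 5 rose, against 52.5% and 9.11% of 9730 genes chosen likewise, a count added after the data were seen. In all, 76 members were below 2 FPKM in both LPS libraries and met the rule only through the others. The share of all genes tested in this position is not given here.

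The size of this drop depends on how the libraries are scaled. Because the median gene was lower in the LPS libraries, each library was also divided by its median ratio to a common profile (1.31, 0.750 and 1.10 for WT naive, LPS and tolerized, and 1.29, 0.688 and 1.08 for the KO), which brought the median of all genes to 0.00. On that scale 77 members fell (36.2%, against 24.3% of all genes) and 20 rose (9.39%, against 22.6%), with a member median of -0.38. When genes of low level were not filtered out, 97 members fell and 1, Zfp811, rose, and the shares of all genes called are not given here. Markers of several cell types were also lower with LPS. Besides the B cell sums given above, T and NK cell markers summed to 34.7 FPKM in naive and 10.2 in LPS cells of WT, and to 26.0 and 7.59 in the KO. Macrophage markers, mostly Lyz2, summed to 48560 and 21240 FPKM in WT and to 38980 and 17830 in the KO. Mast cell markers stood at 135 and 154 FPKM in WT naive and LPS cells and at 123 and 103 in the KO. Their part in the result was not tested. In RNA from a whole culture, fewer cells of a type and less RNA per cell cannot be told apart.

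Low level went with a larger drop in members and in other genes alike. Members with a mean below 5 FPKM had a median difference of -1.10 (113 genes), and other genes in that range had -1.12 (2143 genes). Between 5 and 10 FPKM the medians were -0.92 and -0.93, and at 10 FPKM or more they were -0.83 (37 members) and -0.55 (5847 other genes). Below 5 FPKM limma called 88.5% of members and 71% of other genes lower. Between 5 and 10 FPKM the shares were 74.6% and 64.7%, and at 10 FPKM or more they were 62.2% and 43.9%. On the rescaled values members and other genes of like level were close. The shares were 48.7% and 44.5% below 5 FPKM, 27% and 28.7% between 5 and 10, and 13.5% and 14.9% at 10 or more. Most members of each class of protein fell: 85.3%, 76.9% and 65% in the order below, against 54.4% of all genes. Of the 102 members with a KRAB box 87 fell and 2 rose (median -1.08), of the 91 with 3 or more fingers and no KRAB box 70 fell and 2 rose (-0.96), and of the 20 with fewer fingers 13 fell and 1 rose (-1.08). After rescaling 43, 26 and 8 fell (42.2%, 28.6% and 40%, against 24.3% of all genes), with medians of -0.45, -0.20 and -0.33. The classes also differ in level, with a median mean of 3.57, 6.06 and 7.37 FPKM.

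**Figure D2:**
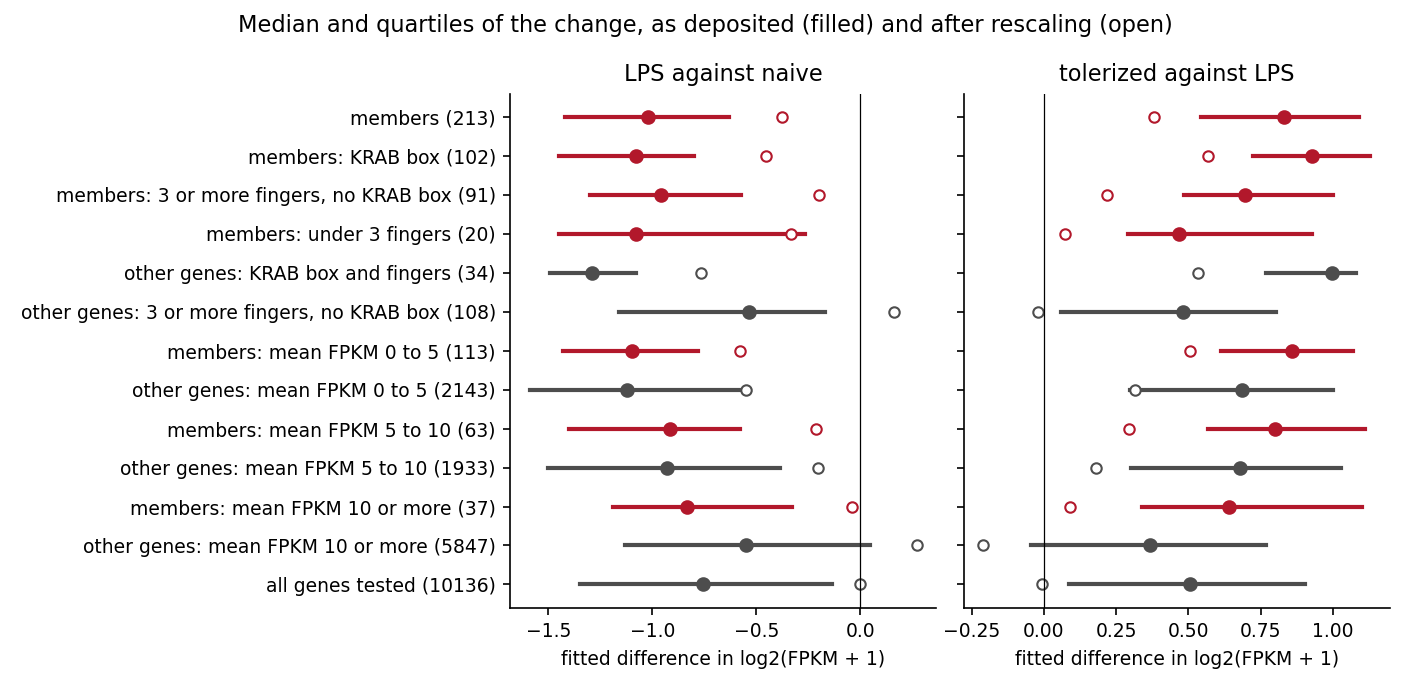
Filled points are medians of the fitted difference in log2(FPKM + 1), lines run between the quartiles, and open points are medians after rescaling; red marks members, grey other genes, with the number of genes in brackets. The members' median is -1.02 for LPS against naive and 0.83 for tolerized against LPS, and genes of low mean level lie to the same side whether or not they are members.

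The largest decrease was that of Zfp395 (chr14:65977513-66017767), which binds the promoter of the huntingtin gene. It measured 15.5, 0.233 and 1.85 FPKM in WT and 6.16, 0.182 and 2.44 in the KO. Both LPS libraries were near 0 and the tolerized libraries stayed well under the naive ones. The difference between LPS and naive was -3.17 ± 0.36 (standard error; limma adjusted p = 0.00088).

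Zfp704 (chr3:9427010-9610085), a relative of Zfp395, had 8.00, 0.213 and 0.657 FPKM in WT and 5.6, 0.241 and 0.407 in the KO. Naive cells of both genotypes stood apart from the other 4 libraries, which were all below 1 FPKM. The fitted difference with LPS was -2.65 ± 0.20. Because Zfp704 met the rule on level only through the naive libraries, this difference is a description, and the same holds for Zfp810 below. Zfp467 (chr6:48377691-48395824), known for steering marrow stromal cells towards fat, measured 12.8, 0.957 and 1.21 FPKM in WT and 4.59, 0.747 and 2.96 in the KO, and fell by 2.25 ± 0.47.

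Zfp161 (chr17:69733318-69739884; its current symbol is Zbtb14) encodes a BTB-domain repressor of Myc. Its levels were 10.7, 1.46 and 4.86 FPKM in WT and 8.42, 1.16 and 4.69 in the KO. The 3 conditions kept the same order in both genotypes, naive above tolerized above LPS, and the fitted drop with LPS was -2.19 ± 0.19. Zfp637 had 14.5, 2.93 and 8.89 FPKM in WT and 14.4, 2.01 and 7.80 in the KO, and Zfp524 had 14.5, 3.44 and 6.64 in WT and 12.7, 1.43 and 7.39 in the KO. The remaining 4 of the 10 largest decreases were Zfp944, Zfp120 and Zfp810, each with a KRAB box, and Zfp219, a partner of Sox9 in cartilage; their differences lay between -2.03 and -1.99. Of these 10, 8 stayed called under every alternative tried, while Zfp467 and Zfp810 were lost when genes of low level were not filtered out. Zfp524 shares 47.9% of its 50-base stretches with another gene, and the locus of Zfp219 overlaps Arhgef40.

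Only 5 members rose with LPS. Zfp811 (chr17:32933956-32946864), a KRAB gene with 14 fingers, was almost silent in naive cells: it measured 0.120, 3.73 and 18.3 FPKM in WT and 0.0577, 6.35 and 21.8 in the KO. The order naive, LPS, tolerized was the same in both genotypes, with no overlap between conditions. Its increase with LPS was 2.44 ± 0.23 (limma adjusted p = 0.00061), and the call held under every alternative. Because Zfp811 met the rule on level only through the LPS and tolerized libraries, this increase is a description.

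Zfp800 (chr6:28189931-28211601), which has 7 fingers and no KRAB box found, followed another course. It measured 11.3, 41.0 and 19.5 FPKM in WT and 12, 95.5 and 24.7 in the KO. Both genotypes peaked in the LPS library, and the KO peak was the second highest value of any member. It rose by 2.34 ± 0.30 with LPS (limma adjusted p = 0.00128). Zfp558 (chr9:18258498-18278003), a KRAB gene with 9 fingers, had 0.822, 4.95 and 9.52 FPKM in WT and 1.73, 8.22 and 8.70 in the KO, and rose by 1.73 ± 0.25. The calls for Zfp800 and Zfp558 were lost when genes of low level were not filtered out. Zfp558 met the rule on level only through the LPS and tolerized libraries, so its increase is a description.

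The other increases were smaller. Zfp593, whose product takes part in making the large ribosomal subunit, measured 4.67, 10.8 and 7.90 FPKM in WT and 5.57, 7.09 and 8.43 in the KO and rose by 0.68 ± 0.24 (limma adjusted p = 0.0493). Its call was lost under 7 of 10 alternatives, its locus overlaps E130218I03Rik, and 68.2% of its 50-base stretches occur in that gene. Zfp296, a partner of Klf4 in pluripotent cells, had 2.34, 3.75 and 2.56 FPKM in WT and 2.51, 4.95 and 3.40 in the KO and rose by 0.64 ± 0.19, a call lost under 4 of 10 alternatives.

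**Figure D3:**
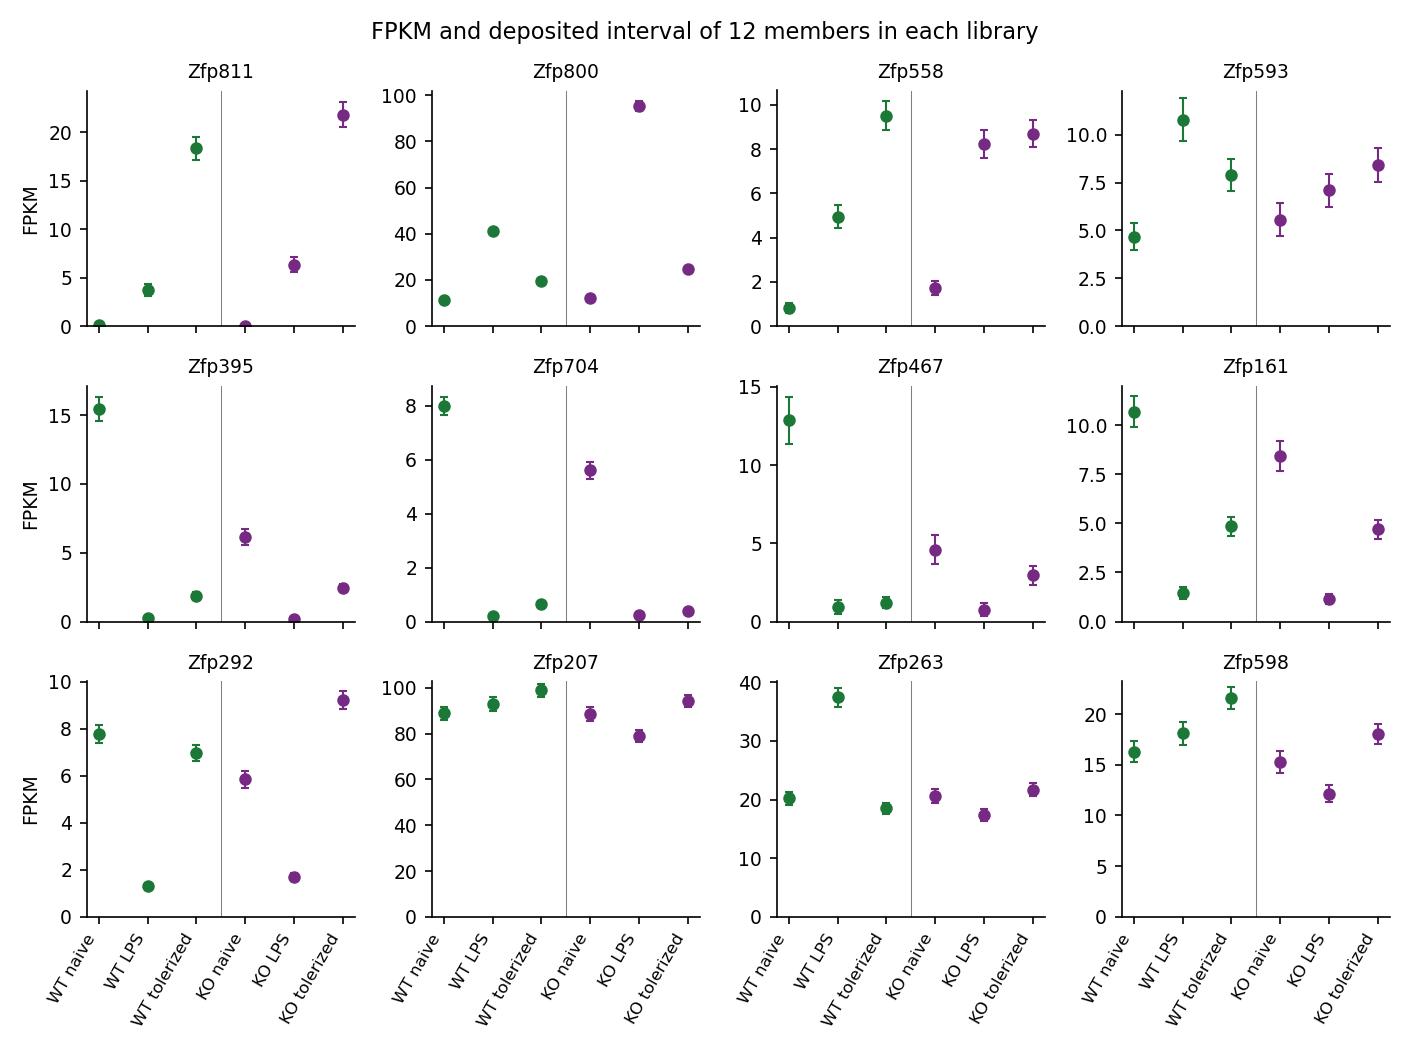
Points are the FPKM of 12 members in each library (green WT, purple KO) and bars the deposited interval, which covers counting error only; every vertical axis starts at 0. Zfp811, Zfp800 and Zfp558 are lowest in naive cells, Zfp395, Zfp704, Zfp467 and Zfp161 are highest there, and Zfp263 has 37.4 FPKM in WT LPS against 17.4 in KO LPS.

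Promoters of these members were searched for letters bound by factors of the LPS response, because members that rose and members that fell can be set side by side there. RefSeq promoters (GRCm38.p6, 250 bases before to 50 after a start) were found for 180 of the 213 members. A kappaB motif, bound by NF-kappaB, was held by 11.7% of these members and by 9.55% of all genes in the table. An interferon-stimulated response element was held by 2.78% against 3.99%, and TGANTCA, bound by AP-1, by 4.44% against 8.97%. Both strands were searched, and a match could overlap that of another motif. Among the members that rose, the promoters of Zfp296, Zfp558, Zfp800 and Zfp811 held none of the 3 motifs in this window, and Zfp593 was not searched. Among the 10 largest decreases a kappaB motif was found in Zfp467 and in 1 of 3 promoters of Zfp161, while Zfp395, Zfp704 and Zfp524 were not searched. A match is a match of letters only. The first 2 sequences below are those of the KRAB genes that rose, the third is the more downstream of 2 promoters of Zfp800, and the fourth is that of Zfp467 with its kappaB match in capitals.
Zfp811, chr17:32809882-32810181, minus strand: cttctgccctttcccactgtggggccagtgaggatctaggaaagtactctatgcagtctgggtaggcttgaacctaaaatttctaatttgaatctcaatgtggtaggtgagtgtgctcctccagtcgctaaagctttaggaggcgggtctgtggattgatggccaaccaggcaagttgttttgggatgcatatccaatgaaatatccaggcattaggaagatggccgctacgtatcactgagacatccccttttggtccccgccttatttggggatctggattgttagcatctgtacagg
Zfp558, chr9:18473596-18473895, minus strand: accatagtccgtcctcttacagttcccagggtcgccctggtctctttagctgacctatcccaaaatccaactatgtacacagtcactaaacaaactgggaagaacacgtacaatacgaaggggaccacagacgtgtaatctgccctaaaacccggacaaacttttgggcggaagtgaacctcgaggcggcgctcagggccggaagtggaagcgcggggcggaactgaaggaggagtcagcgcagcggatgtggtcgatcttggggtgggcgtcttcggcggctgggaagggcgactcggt
Zfp800, chr6:28261875-28262174, minus strand: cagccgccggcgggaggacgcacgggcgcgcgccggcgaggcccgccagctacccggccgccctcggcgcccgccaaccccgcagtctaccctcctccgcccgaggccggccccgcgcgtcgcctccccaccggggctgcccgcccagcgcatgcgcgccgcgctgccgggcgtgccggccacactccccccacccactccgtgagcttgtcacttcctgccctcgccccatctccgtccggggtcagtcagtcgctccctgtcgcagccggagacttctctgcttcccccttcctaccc
Zfp467, chr6:48445041-48445340, minus strand: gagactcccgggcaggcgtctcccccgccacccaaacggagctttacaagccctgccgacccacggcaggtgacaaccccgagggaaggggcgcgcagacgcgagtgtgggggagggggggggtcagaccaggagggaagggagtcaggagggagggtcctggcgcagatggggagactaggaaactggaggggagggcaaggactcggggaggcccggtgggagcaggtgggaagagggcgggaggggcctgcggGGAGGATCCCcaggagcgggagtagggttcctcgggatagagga

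Members with a known role were then read by function. Of 8 members that act on RNA or the ribosome, 3 fell with LPS (Zfp106, Zfp326 and Zfp830) and 1 rose (Zfp593), with a median of -0.52, which became 0.22 after rescaling. The share that fell was 37.5%, against 79.8% of all members and 54.4% of all genes tested. The calls of Zfp106 and Zfp830 were lost under 4 and 5 of 10 alternatives. Zfp598, the ubiquitin ligase that senses collided ribosomes, measured 16.3, 18.1 and 21.6 FPKM in WT and 15.3, 12.2 and 18.0 in the KO. With LPS it was higher than in naive cells in WT and lower in the KO, and limma called it in no contrast on the deposited scale. After rescaling it rose with LPS by 0.72 (limma adjusted p = 0.0274). Zfp622, needed to finish the large ribosomal subunit, had 17.5, 13.3 and 12.8 FPKM in WT and 16.1, 10.4 and 14.6 in the KO and was called on neither scale.

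Of 14 members known as transcription or chromatin factors, 12 fell with LPS and none rose (median -0.89, or -0.18 with 3 decreases and 1 increase, Zfp703, after rescaling). This share of 85.7% is near that of all members, 79.8%. The calls of Zfp335, Zfp384, Zfp410 and Zfp592 were each lost under 7 to 9 of 10 alternatives. Within the list Zfp148, which binds GC-rich promoters, measured 11.2, 4.00 and 7.47 FPKM in WT and 8.69, 4.24 and 7.63 in the KO and fell by 1.09 ± 0.20. Zfp292, a very long protein with 15 fingers, measured 7.78, 1.30 and 6.95 FPKM in WT and 5.85, 1.69 and 9.21 in the KO and fell by 1.64 ± 0.24. Both LPS libraries of Zfp292 were under 2 FPKM while the other 4 were above 5. Zfp143 and Zfp703 were the 2 that were not called, at -0.17 and 0.17.

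The 3 KRAB members known to repress retroviruses or to guard imprinted genes all fell with LPS. Zfp809, which silences murine leukaemia viruses, measured 13.7, 3.70 and 11.2 FPKM in WT and 10.5, 4.59 and 10.7 in the KO, and fell by 1.34 ± 0.22. Zfp445, which helps to keep imprints, measured 29.3, 11.2 and 25.9 FPKM in WT and 24.3, 11.1 and 27.0 in the KO, and fell by 1.19 ± 0.20. In tolerized cells neither was called against naive cells. Zfp932 had 8.16, 2.98 and 4.77 FPKM in WT and 7.14, 2.43 and 6.15 in the KO, but 45.2% of its 50-base stretches occur in other genes. None of these 3 calls held after rescaling.

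The ubiquitin ligase Zfp91, which acts on NF-kappaB-inducing kinase, had 31.8, 12.3 and 27.8 FPKM in WT and 29.3, 11.8 and 25.9 in the KO and fell by 1.27 ± 0.19. Zfp451, a SUMO ligase, had 6.99, 3.47 and 6.10 FPKM in WT and 5.28, 3.69 and 5.98 in the KO and fell by 0.63 ± 0.20. Zfp318, which B cells need to splice IgD transcripts, measured 8.62, 3.10 and 5.39 FPKM in WT and 7.36, 3.23 and 5.4 in the KO and fell by 1.11 ± 0.19. Its order of conditions in WT was that of the summed B cell markers given above, and in the KO it was not, since those markers were highest in tolerized cells. The part of B cells in its level was not tested. The 3 calls were lost after rescaling, and that of Zfp451 under 7 of 10 alternatives.

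Tolerized cells given the same LPS challenge had higher Zfp levels than cells given LPS once. By limma 143 members (67.1%) rose and 1 fell, against 36.8% and 4.32% of all genes tested, with a median difference of 0.83 against 0.51. The rule on level fixed this in part: 76 members were below 2 FPKM in both LPS libraries and met it only through the others. Of these, 40 were at 2 FPKM or more in all of the other 4. The share of all genes tested that met the rule in this way is not given here. Both tolerized libraries were above both LPS libraries in 189 members (88.7%, against 63.9%) and below them in 5 (2.35%, against 10.4%): Zfp213, Zfp296, Zfp513, Zfp628 and Zfp800, of which Zfp213, Zfp513 and Zfp628 are named after their values were seen. After rescaling 38 rose (17.8%, against 8.88%) and 3 fell (1.41%, against 9.28%), with a median of 0.38. In single pairs of libraries, 59 of 191 members were at least 2-fold higher in WT and 1, Zfp800, was lower, against 20.7% and 4.43% of all genes. In the KO 82 of 189 were higher and again Zfp800 was lower, against 23.9% and 4.13%. Genes of low level were called higher more often whether or not they were members. Below a mean of 5 FPKM limma called 74.3% of members and 49.5% of other genes higher. Between 5 and 10 FPKM the shares were 65.1% and 48.5%, and at 10 FPKM or more they were 48.6% and 27.2%. On the rescaled values they were 24.8% and 16.7% below 5 FPKM, 14.3% and 12.1% between 5 and 10, and 2.7% and 4.63% at 10 or more. Markers moved here too: B cell sums were higher in tolerized than in LPS cells (483 against 314 FPKM in WT, 601 against 275 in the KO), as were those of T and NK cells (19.6 against 10.2, 21.6 against 7.59) and mast cells (192 against 154, 184 against 103). Macrophage markers went both ways. Their sums, mostly Lyz2, were lower (16120 against 21240, 10610 against 17830), as were Cd68 and Mrc1. Emr1 was higher (922 against 278, 842 against 283), as were Itgam and Csf1r in both genotypes. The part of these cell types in the result was not tested. This comparison shares its LPS libraries with that of LPS and naive cells, so the 2 sets of values are not independent. The calls rest on few libraries. Far fewer members were called without the KO LPS library, and fewer without WT LPS or without KO tolerized. When genes of low level were not filtered out limma called no member (148 at an unadjusted p under 0.05). How many of all genes were called in these fits is not given here.

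KRAB members were the most often called. Of the 102, 81 rose (79.4%, median 0.93). Of the 91 with fingers and no KRAB box 53 rose (58.2%) and 1 fell (median 0.70), and of the 20 with fewer fingers 9 rose (45%, median 0.47). Over all genes tested 36.8% rose. After rescaling the counts were 27, 11 and 0 (26.5%, 12.1% and 0%, against 8.88% of all genes), with medians of 0.57, 0.22 and 0.07. The classes differ in level, with a median mean of 3.57, 6.06 and 7.37 FPKM. Genes of low level were called higher more often, so the order of the classes cannot be told apart from level. Between classes no test was run.

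The 10 largest increases over LPS cells were those of Zfp292, Zfp811, Zfp652, Zfp120, Zfp7, Zfp944, Zfp53, Zfp238, Zfp3 and Zfp637. Zfp292 led with 1.86 ± 0.24 (limma adjusted p = 0.0077), on the values given above. Zfp652, a repressor that works with Cbfa2t3, measured 13.8, 2.29 and 7.62 FPKM in WT and 9.49, 2.18 and 11.1 in the KO, and rose by 1.66 ± 0.27. Its KO tolerized library was above the KO naive one, while in WT the tolerized library stayed below. Zfp238 (current symbol Zbtb18), a BTB repressor of neuronal differentiation genes, had 26.4, 9.68 and 22.7 FPKM in WT and 22.9, 6.20 and 23.5 in the KO and rose by 1.46 ± 0.23. Zfp3, with 13 fingers, measured 1.91, 0.161 and 2.39 FPKM in WT and 3.08, 0.340 and 2.40 in the KO, so that it was near 0 in LPS cells of both genotypes.

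Zfp7, a KRAB gene, measured 1.53, 0.572 and 3.72 FPKM in WT and 1.77, 0.592 and 3.58 in the KO. Its fitted increase was 1.56 ± 0.18. Because Zfp7 met the rule on level only through the tolerized libraries, this increase is a description. The tolerized libraries were the highest in both genotypes. All 10 increases stayed called after rescaling, and without the KO LPS library only Zfp292 and Zfp811 of the 10 did. The only decrease was that of Zfp800, by 1.47 ± 0.30 (limma adjusted p = 0.0146), and it was lost without the KO LPS library.

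Against naive cells, the tolerized cells had few changed members. By limma 6 rose (2.82%) and 23 fell (10.8%), against 7.41% and 19.8% of all genes tested, and the median difference was -0.18 against -0.22. After rescaling 6 rose and 8 fell (against 9.47% and 11.4% of all genes), with a median of 0.04. Both tolerized libraries were above both naive libraries in 35 members (16.4%, against 22.6%) and below them in 102 (47.9%, against 49.9%). In pairs of libraries 4 of 213 members were at least 2-fold higher in WT tolerized cells (Zfp811, Zfp558, Zfp719 and Zfp658) and 14 lower, against 8.05% and 15.9% of all genes. In the KO 2 of 210 were higher (Zfp811 and Zfp558) and 5 lower (Zfp704, Zfp395, Zfp219, Zfp580 and Zfp358), against 6.24% and 13.1%. When genes of low level were not filtered out limma called no member (49 at an unadjusted p under 0.05). Fewer members were called without the WT naive library, without WT tolerized and without KO tolerized. With a pseudocount of 0.25 in place of 1, 15 members fell. How many of all genes were called in these fits is not given here. Of the 23 that fell, 9 had met the rule on level only through the naive libraries, and without such members 14 of 198 (7.07%) fell, against 17.2% of 9730 genes.

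The 6 members that rose all had a KRAB box. Zfp811 led with 4.27 ± 0.23 (limma adjusted p = 0.00156), followed by Zfp558 with 2.18 ± 0.25. Zfp719 measured 2.94, 4.34 and 8.36 FPKM in WT and 4.27, 4.57 and 6.55 in the KO, and rose by 0.88 ± 0.23. In both genotypes its tolerized library was the highest. Its call and that of Zfp948 were each lost under 5 of 10 alternatives, that of Zfp7 under 6 and that of Zfp52 under 8, among them the pseudocount of 0.25 and each library left out in turn. The calls of Zfp811 and Zfp558 were lost under 1, when genes of low level were not filtered out. Zfp7 met the rule on level only through the tolerized libraries, so its increase over naive cells is a description. Zfp811 and Zfp558 met it only through the LPS and tolerized libraries, so their increases over naive cells are descriptions too.

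Zfp52 (chr17:21672503-21699565) and Zfp948 (chr17:21704010-21725649) lie close together on chromosome 17, near Zfp53 (chr17:21625952-21647441) and Zfp677 (chr17:21520712-21536229). Zfp52 measured 12.9, 7.62 and 21.5 FPKM in WT and 13.4, 10.1 and 22.5 in the KO, with a difference of 0.70 ± 0.20. Zfp948 measured 3.63, 4.46 and 6.39 FPKM in WT and 3.59, 3.50 and 7.68 in the KO, and rose by 0.80 ± 0.21. Zfp53 had 6.44, 1.54 and 5.93 FPKM in WT and 6.01, 1.88 and 7.06 in the KO, with a difference between tolerized and naive cells of 0.05 ± 0.19 that was not called. With LPS the differences from naive cells were -0.54 for Zfp52, 0.11 for Zfp948, -1.42 for Zfp53 and -1.62 for Zfp677, and only those of Zfp53 and Zfp677 were called. Of the 50-base stretches of these 4 genes, 0.035% to 0.90% occur in another gene.

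Among members that stayed low, Zfp395 fell by 1.79 ± 0.36 between naive and tolerized cells. Zfp219 measured 14.9, 2.89 and 3.22 FPKM in WT and 9.91, 1.82 and 3.91 in the KO, and fell by 1.53 ± 0.25. Zfp580, a short protein of 3 fingers, had 2.93, 0.234 and 0.639 FPKM in WT and 2.31, 0.462 and 0.539 in the KO. In both genes and both genotypes the tolerized library lay between the LPS and the naive library. The others among the 10 largest decreases were Zfp704 (-2.34 ± 0.20) and Zfp810, Zfp358, Zfp608, Zfp949, Zfp706 and Zfp273, between -1.18 and -0.89, of which Zfp608 and Zfp706 were not called after rescaling. Zfp704, Zfp580, Zfp810, Zfp608, Zfp949 and Zfp273 met the rule on level only through the naive libraries, so their decreases are a description.

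Members moved with LPS in like fashion in both genotypes. Across the 213 members, the WT difference between LPS and naive and the KO difference had a Pearson correlation of 0.87 (0.87 across all genes tested), and 202 members (94.8%, against 86% of all genes) had the same sign in both. For tolerized against LPS the correlation was 0.74, and 201 members (94.4%, against 84.1%) had the same sign. For tolerized against naive cells it was 0.82, but only 150 members (70.4%, against 78.2%) had the same sign. Genes are not independent replicates, and the points of each genotype share its libraries, so these are descriptions.

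**Figure D4:**
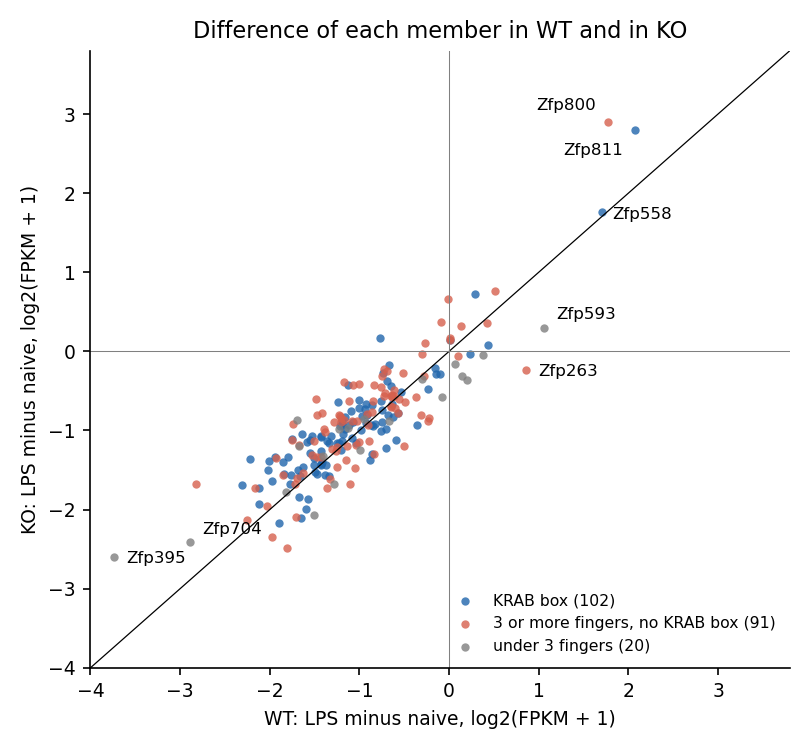
Each point is 1 member, placed by the difference in log2(FPKM + 1) between LPS and naive cells in WT (horizontal) and in the KO (vertical), coloured by protein class, with the line of equal change. Points follow the line (r = 0.87), with Zfp811, Zfp800 and Zfp558 at the top right and Zfp263 to the right of it.

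No member differed between KO and WT in the fit over all 3 conditions. By limma 0 members were called higher and 0 lower, as were 0 of all 10136 genes. At an unadjusted p under 0.05 there were 3 members and 707 genes, and the smallest adjusted p of a member was 0.618, that of Zfp187. A fit without the trend of variance on level also called 0 members.

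Single conditions gave a different picture for naive cells, where no replicate check exists. KO naive was below WT naive in 177 members (83.1%), against 53.2% of all genes, and after rescaling in 167 (78.4%, against 50.5%). The median difference of the members was -0.22, against -0.03 for all genes. With LPS the KO was lower in 144 members (67.6%, against 60.1%), and after rescaling in 126 (59.2%, against 51.1%). In tolerized cells it was lower in 100 (46.9%, against 52.9%), and after rescaling in 93 (43.7%, against 49.4%). The medians were -0.14 with LPS and 0.01 in tolerized cells. Few differences reached 2-fold. In the naive pair 2 of 208 members, Zfp395 and Zfp467, were at least 2-fold lower in the KO and none was higher, against 2.61% and 3.93% of all genes. With LPS 1 of 137, Zfp263, was lower and 1, Zfp800, higher, against 2.93% and 4.02%, and in tolerized cells 0 of 197 were lower or higher, against 0.707% and 1.75%. KO was below WT in all 3 conditions in 62 members (29.1%, against 18.2%) and above it in 12 (5.63%, against 10.8%). Marker genes moved with this contrast in the naive pair. The summed level of 4 dendritic cell markers was 39.0 FPKM in WT naive and 3.67 in KO naive, nearly all of it Cd209a (36.9 and 0.0898 FPKM). B cell markers summed to 759 and 568 FPKM, and T and NK cell markers to 34.7 and 26.0. Of 6 macrophage markers 5 were lower in the KO and Itgam was higher (310 in WT, 352 in the KO), with sums of 48560 and 38980 FPKM. The 4 large peritoneal macrophage markers went both ways, with Timd4 at 35.6 and 108 FPKM and F5 at 47.4 and 3.39. The part of these cells in the difference was not tested.

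**Figure D5:**
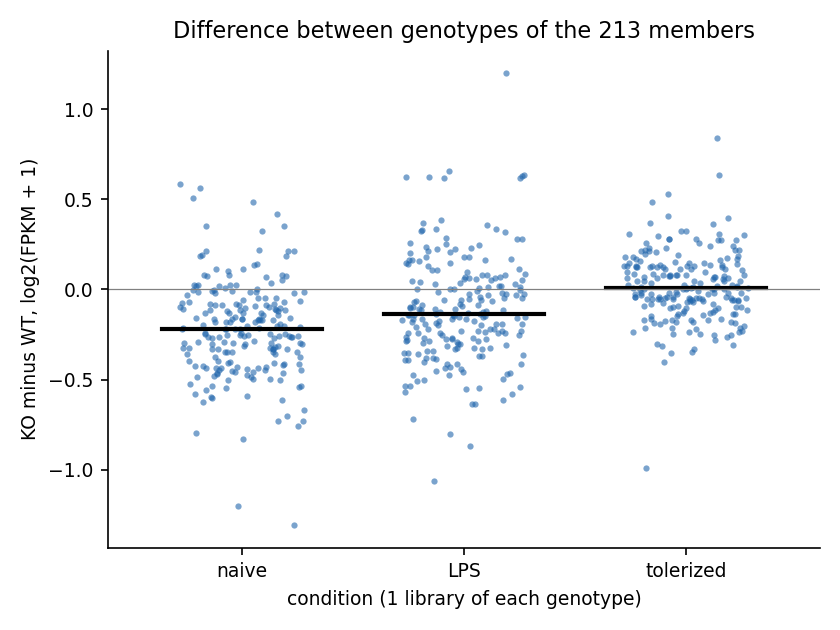
Each point is 1 member and shows KO minus WT in log2(FPKM + 1) for the naive, LPS and tolerized pair of libraries; bars are medians. The median is -0.22 in naive, -0.14 in LPS and 0.01 in tolerized cells, and the highest point in the LPS pair is Zfp800.

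Among the largest differences of 1 sign in all 3 conditions, Zfp187 (current symbol Zscan26) measured 35.2, 9.0 and 18.5 FPKM in WT and 19.8, 6.07 and 15.7 in the KO, a difference of -0.51 ± 0.18. Zfp825, Zfp746, Zfp949, Zfp101 and Zfp472 followed, between -0.44 and -0.35. Zfp746, the Parkin substrate also called PARIS, had 13, 6.57 and 7.0 FPKM in WT and 9.82, 3.94 and 5.72 in the KO. In the other direction Zfp800 had the largest difference, 0.53 ± 0.25, which came mainly from its LPS libraries. Zfp295 (current symbol Zbtb21) measured 6.47, 6.50 and 7.59 FPKM in WT and 7.70, 8.63 and 9.59 in the KO, a difference of 0.29 ± 0.15. Zfp503, Zfp296, Zfp3 and Zfp677 lay between 0.27 and 0.18. None of these 12 was called.

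The deleted microRNAs pair through bases 2 to 8 with sites in 3' untranslated regions, and both have the same seed, shown in capitals in the mature RefSeq sequences (GRCm38.p6, X chromosome, minus strand).
mmu-miR-221-3p: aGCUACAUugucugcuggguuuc
mmu-miR-222-3p: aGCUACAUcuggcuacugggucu
The matching site, ATGTAGC, was found in the 3' untranslated regions of 27 of 212 members (12.7%), against 11.3% of 9705 genes tested. The stretches below hold the sites of Zfp106, Zfp263, Zfp652 and Zfp91, which are among the most abundant or most changed members, with the site in capitals (GENCODE M21, GRCm38).
Zfp106: ctcactattgATGTAGCtggacaaagc
Zfp263: gagtctagatATGTAGCccaggcttaa
Zfp652: taaccactcaATGTAGCattgtatatt
Zfp91: taaaatattgATGTAGCctttaccaga
The fitted median difference between KO and WT of the members with a site was -0.11, and that of the 162 members with no site was -0.10. Another 23 members had only a site for bases 2 to 7 followed by A and are in neither group, with a median of -0.13. Over all genes tested the medians were -0.05 with and -0.06 without a site. By condition the medians of members with and without a site were -0.18 and -0.22 in naive cells, -0.096 and -0.14 with LPS, and 0.046 and 0.0016 in tolerized cells, and no test was run between them. Of the 27 members with a site 4 had a positive fitted difference, as did 32 of the 162 with no site and 2 of the 23 others. Zfp652, which has a site, stood at 9.49 FPKM in KO and 13.8 in WT naive cells and at 11.1 and 7.62 FPKM in tolerized cells. A match of letters does not show that the site is used.

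Genes outside the Zfp symbols that encode similar proteins were set beside the members. Of 34 other genes tested with a KRAB box and fingers, 32 fell with LPS and none rose (median -1.29, rescaled -0.76), and 30 rose in tolerized against LPS cells (median 1.00, rescaled 0.53), where 36.8% of all genes tested rose. With LPS 54.4% of all genes fell and 8.74% rose, with a median of -0.76, which is the background of the counts that follow. Of 108 other genes with 3 or more fingers and no KRAB box, 52 fell and 12 rose with LPS (median -0.54, and 0.16 after rescaling). By symbol, 20 of 33 Zbtb genes (60.6%) fell and none rose (-0.73), 9 of 11 Zscan and Zkscan genes fell and none rose (-1.20), 6 of 16 Zc3h genes, which carry RNA-binding CCCH fingers, fell and 5 rose (-0.34), and 5 of 11 Klf genes fell and 2 rose (-0.40). After rescaling the medians of the Zc3h and Klf genes were 0.43 and 0.36.

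The partners through which KRAB proteins act fell about as often as genes at large. Of 17 silencing partners tested, 9 (52.9%, against 54.4% of all genes) fell with LPS (Setdb1, Atf7ip, Cbx1, Cbx3, Cbx5, Chd3, Mphosph8, Smarcad1 and Dnmt1) and none rose. Trim28, the hub to which KRAB boxes bind, measured 43.6, 33.6 and 41.6 FPKM in WT and 44.1, 32.5 and 38.3 in the KO and was not called (-0.40 ± 0.20, limma adjusted p = 0.125). Setdb1, the methyltransferase it recruits, had 13.8, 5.44 and 11.8 FPKM in WT and 14.1, 4.92 and 11.8 in the KO. It fell by 1.28 ± 0.19, a call lost after rescaling. Dnmt1, the maintenance DNA methyltransferase, had 14.3, 1.05 and 7.62 FPKM in WT and 19.3, 1.8 and 9.83 in the KO, and fell by 2.88 ± 0.18. Of these 17, 10 (58.8%, against 36.8% of all genes) rose in tolerized against LPS cells, Setdb1 and Dnmt1 among them. On the rescaled values 4 (23.5%, against 8.88% of all genes) rose and 2 (11.8%, against 9.28%) fell in that comparison. Dnmt1 was still called there and Setdb1 was not. After rescaling 4 (23.5%, against 24.3% of all genes) fell and 3 (17.6%, against 22.6%) rose with LPS.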

How the data were processed

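The submitters' processing notes name bcl2fastq 1.8.4, TopHat and Cufflinks, and the build mm9; for the other 2 tools no version, and for the annotation no name, was given in the sources used. The authors deposited gene-level FPKM with lower and upper interval bounds, also FPKM, and a status per gene, per the file headers. Values were used as deposited. Locus starts, which count from 0 in these tables, were moved by 1 base.

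Genes listed once, OK in all 6 libraries, not small RNAs, and at 2 FPKM or more in 2 or more libraries (10136) were fitted on log2(FPKM + 1) by limma 3.58.1 under R 4.3.3 (two-sided tests, eBayes with a trend of variance on level), with genotype and condition as additive terms and Benjamini-Hochberg adjustment over all of them at 0.05. Fold changes are on that scale, which understates changes of low genes. Library pairs follow a rule of size (2-fold) with no test. Low FPKM and 1 library per group limit precision. Fingers, KRAB boxes, 50-base stretches and seed sites were searched in GENCODE M21 sequences, for 213 members matched by symbol (10 by synonym). Named genes are, for each contrast of conditions, the 10 largest called changes each way that had like direction in WT and KO, for the genotypes the 6 largest differences each way with 1 sign in all 3 conditions, the 10 highest by mean, the 5 on each side of the level rule, and members with a known role. Members, lists and tests were chosen with earlier results of these data known. Alternatives were a pseudocount of 0.25, no filter, median-of-ratios rescaling, no trend, each library left out, other level rules and intervals that do not overlap. The fit was tested on simulated data.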

Additional observations from a re-analysis of the deposited data

Results flagged for a closer look

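WT and KO had opposite signs in 11 of 213 members for LPS against naive, 12 for tolerized against LPS and 63 for tolerized against naive. For 12 members the deposited intervals of the compared libraries also did not overlap in either genotype. The share of all genes tested that meet this rule is not given here. This count and those below by the same rule are therefore descriptions of single members. There was 1 library a group, and in each case the difference between genotypes was not tested. Differences below are the KO log2 ratio minus the WT log2 ratio of FPKM + 1. Zfp263, a SCAN-domain protein, measured 20.2, 37.4 and 18.5 FPKM in WT (naive, LPS, tolerized) and 20.6, 17.4 and 21.7 in the KO, which gave -1.09 for LPS against naive and 1.28 for tolerized against LPS. The WT LPS library stands above the other 5. For tolerized against LPS the difference was 0.85 for Zfp703 and 0.93 for Zfp945.

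Of the 63 members with opposite signs for tolerized against naive cells, 10 had no such overlap, with the KO ratio the higher one in 9 and the WT ratio in 1. Zfp658 gave -1.49, with log2 ratios of 1.14 in WT and -0.36 in the KO. In the other direction the difference was 1.06 for Zfp945, 1.02 for Zfp715, 0.72 for Zfp292, 0.55 for Zfp935, 0.54 for Zfp646, 0.49 for Zfp871, 0.46 for Zfp68, 0.36 for Zfp110 and 0.32 for Zfp445. All 50-base stretches of Zfp935 occur in other genes, and the locus of Zfp646 overlaps Prss53. In WT naive cells the members' median was 6.47 FPKM and in KO naive cells 5.70, and this pair enters each of these 10 differences.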

How the results depend on the processing

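On rescaling by median ratios LPS against naive went from 5 higher and 170 lower to 20 and 77, tolerized against LPS from 143 and 1 to 38 and 3, and tolerized against naive from 6 and 23 to 6 and 8. With no filter the counts were 1 and 97, 0 and 0, and 0 and 0, over 22162 genes. Shares of all genes called are not given here for fits with no filter, another pseudocount or a library left out. A pseudocount of 0.25 left 15 lower members in tolerized against naive, and leaving out members that met the level rule only in naive cells, chosen after seeing the data, left 14. Leaving out each library in turn gave 3 to 5 higher and 123 to 160 lower members for LPS against naive, 2 to 150 and 0 to 1 for tolerized against LPS, 2 to 4 and 6 to 20 for tolerized against naive, and 0 and 0 for KO against WT.

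In library pairs, members at least 2-fold higher and lower became 9 and 44 (WT LPS against naive), 10 and 3 (WT tolerized against LPS), 10 and 30 (KO LPS against naive), 21 and 3 (KO tolerized against LPS), and 5 and 1 (KO tolerized against naive) on rescaling, with 6 lower for WT tolerized against naive and 0 lower for KO against WT with LPS. With a pseudocount of 0.25 the WT pair of tolerized and LPS had 2 lower, WT tolerized against naive 24 lower, KO tolerized against naive 4 higher and 12 lower, KO against WT 3 lower with LPS and 1 higher and 1 lower in tolerized cells. At 2 FPKM in all 6 libraries there were 112 members.

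The sign of some named members turned on rescaling. For LPS against naive this held for Zfp207 (0.79), Zfp384 (0.21), Zfp598 (0.72), Zfp622 (0.33), Zfp346 (0.11), Zfp451 (0.075), Zfp143 (0.59), Zfp410 (0.20), Zfp592 (0.22), Zfp335 (0.11) and Zfp397 (0.028). For tolerized against LPS it held for Zfp207 (-0.42), Zfp384 (-0.092), Zfp706 (-0.038), Zfp655 (-0.08), Zfp598 (-0.18), Zfp622 (-0.37), Zfp326 (-0.26), Zfp592 (-0.19), Zfp703 (-0.46) and Zfp746 (-0.25). Leaving out 1 library turned the sign of some uncalled differences. For LPS against naive these ran from -0.148 to 0.046 for Zfp207, -0.279 to 0.906 for Zfp263, -0.267 to 0.101 for Zfp598 and -0.154 to 0.489 for Zfp703. For tolerized against LPS they ran from -0.931 to 0.254 for Zfp263, -0.002 to 0.393 for Zfp622, -0.437 to 0.253 for Zfp593 and -0.213 to 0.43 for Zfp703. Zfp263 and Zfp703 turned without WT LPS in the first contrast. The cause was not tested. No paired analysis was possible because each group has 1 library and the labels give no replicate numbers. Intervals widened to about 17% in the LPS libraries, where levels were lowest.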
